A study of Mus musculus with 12 samples.

Results

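Expression of 10 bile acid genes was followed in the livers of 12 mice, of 30063 genes that the array names by exactly 1 symbol. They were chosen by name and cover synthesis (Cyp7a1, Cyp8b1, Cyp27a1, Cyp7b1), conjugation (Baat), regulation (Nr1h4, Nr0b2) and transport (Abcb11, Slc10a1, Slco1b2). Each had 1 probe set, and all 10 passed the filter on low values, so the counts below cover every one of them.

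Hepatocytes make bile acids from cholesterol by a classic route that starts with Cyp7a1 and an alternative route through Cyp27a1 and Cyp7b1, while Cyp8b1 sets the share of cholic acid. Baat joins bile acids to taurine or glycine, Abcb11 pumps the conjugates into the bile canaliculus, and Slc10a1 and Slco1b2 take bile acids back up from portal blood. The bile acid receptor FXR, encoded by Nr1h4, induces Abcb11 and the repressor SHP, encoded by Nr0b2, which lowers transcription of Cyp7a1 and Cyp8b1.

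Mice were 3 months old and all C57BL/6J -Oca2p-un/J. A first group of 4 was given 20 nm silver particles coated with polyvinylpyrrolidone (PVP-AgNP), a second group of 4 the same size of particle coated with citrate (cit-AgNP), and 4 controls were given water. Silver was gavaged at 4 mg per kg in 7 daily doses, and livers were taken 24 h after the last. Every group held 2 females and 2 males, with 1 array per mouse by the labels, and this small number of arrays limits how precise any value can be. Whole liver was measured, so fewer hepatocytes and less RNA per hepatocyte cannot be told apart. Values are log2 signals, on which a difference of 1 is a doubling, and the signal of one gene cannot be set against that of another.

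The arrays separated exon from intron control probe sets with an area under the curve of 0.804 to 0.842, except PVP-AgNP mice 1 and 4, at 0.778 and 0.794. For each of the 10 genes the fold change of PVP-AgNP against control is also given without those 2 mice. The 5 hepatocyte markers were at or near the ceiling of the scale in every liver, with log2 sums of 22.21 to 22.25 in PVP-AgNP livers and 22.25 in each cit-AgNP and control liver, so they identify the tissue without measuring its hepatocyte content. Cholangiocyte markers summed to 6.67 to 7.24 in PVP-AgNP livers, 6.70 to 7.00 in cit-AgNP livers and 6.80 to 6.92 in control livers, and pancreas markers to 6.49 to 6.75, 6.46 to 6.60 and 6.42 to 6.76 in the same order of groups. Of the cholangiocyte markers 4 of the 5 with a probe set were above the filter on low values, and of the pancreas markers 1 of 4, so those sums are low signals. Endothelial markers summed to 10.27 to 11.12, 10.61 to 11.24 and 10.67 to 10.92, and stellate cell markers to 11.57 to 12.87, 11.85 to 12.65 and 12.26 to 13.15, again for PVP-AgNP, cit-AgNP and control.

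Upstream sequence is shown for the 4 genes in which the letters of a nuclear receptor motif lay in the 250 bases before the transcription start, since FXR, LRH-1 and HNF4 alpha are the receptors best known for bile acid genes. Of the 10 genes, 7 had a sequence in the RefSeq table of GRCm38.p6, and Cyp7a1, Cyp7b1 and Baat are named only. Lines run 5′ to 3′ on the strand of the gene, with the motif in capitals. The Abcb11 window is chr2:69342617-69342866 on the minus strand, and its capitals mark an inverted repeat of the hexamer AGGNCA with 1 base between, the form that FXR binds, at -63 to -51 from the start. The Slco1b2 window is chr6:141629268-141629517 on the plus strand, with the same kind of repeat at -88 to -76. That position is counted from a start just after the Slco1b2 window. The annotated start of the gene, 141629452, lies within the window. For Nr0b2 the window is chr4:133553126-133553375 on the plus strand, and TCAAGG, the core bound by LRH-1, lies at -68 to -63 and at -35 to -30. For Cyp8b1 it is chr9:121916306-121916555 on the minus strand, and CAAAGTCCA, a form bound by HNF4 alpha, lies at -67 to -59.
Abcb11: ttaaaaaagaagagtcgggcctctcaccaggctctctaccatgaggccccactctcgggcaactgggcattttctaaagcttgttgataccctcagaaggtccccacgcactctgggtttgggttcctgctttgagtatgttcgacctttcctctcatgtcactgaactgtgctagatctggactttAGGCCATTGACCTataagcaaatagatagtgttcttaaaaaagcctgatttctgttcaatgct
Slco1b2: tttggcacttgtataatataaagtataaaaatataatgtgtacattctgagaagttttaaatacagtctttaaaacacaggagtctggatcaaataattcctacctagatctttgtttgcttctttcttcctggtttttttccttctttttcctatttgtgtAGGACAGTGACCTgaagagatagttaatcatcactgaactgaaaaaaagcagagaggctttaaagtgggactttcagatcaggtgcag
Nr0b2: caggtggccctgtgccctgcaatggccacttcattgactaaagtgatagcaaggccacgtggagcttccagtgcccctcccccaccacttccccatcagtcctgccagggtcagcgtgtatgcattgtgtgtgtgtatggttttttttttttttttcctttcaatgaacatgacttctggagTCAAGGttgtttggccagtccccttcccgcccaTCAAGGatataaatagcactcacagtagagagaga
Cyp8b1: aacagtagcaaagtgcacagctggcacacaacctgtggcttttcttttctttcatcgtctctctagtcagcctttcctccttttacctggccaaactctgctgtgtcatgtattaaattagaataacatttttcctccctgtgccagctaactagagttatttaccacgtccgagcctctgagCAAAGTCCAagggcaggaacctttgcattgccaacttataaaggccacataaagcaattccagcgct
The motifs were searched on both strands and were chosen after these sequences were seen. Of 32851 promoters in the table, 0.0852% held the inverted repeat in the 250 bases upstream, 12.5% held TCAAGG and 0.384% held CAAAGTCCA. None of the letters searched was found in the windows of Cyp27a1, Nr1h4 or Slc10a1. The Cyp27a1 window, chr1:74713285-74713534, lies inside the annotated span of its gene, 74713148-74737897. Likewise the Nr1h4 window, chr10:89506659-89506908, lies inside 89454234-89533645. For Slc10a1, spanning 80953185-80968705, the window chr12:80968706-80968955 lies before the gene and chr12:80968080-80968329 inside it. Sequence before the outermost start of Cyp27a1 and Nr1h4 was thus not covered.

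In livers of PVP-AgNP mice the lower values stood in Abcb11, Cyp8b1 and Nr0b2, but none of the 10 genes passed the test against control (0 of 10 called by limma, where 0.04% of all 19985 genes tested were called). At an unadjusted p under 0.05 there were 3 of the 10, all lower, against 20.3% of all genes, so the share is near the background. The median log2 fold change of the 10 genes was -0.30, with 4 above 0 and 6 below, and that of all genes was close to 0 (-0.0023). The plot of signals by mouse and group shows each of these genes.

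**Figure D1:**
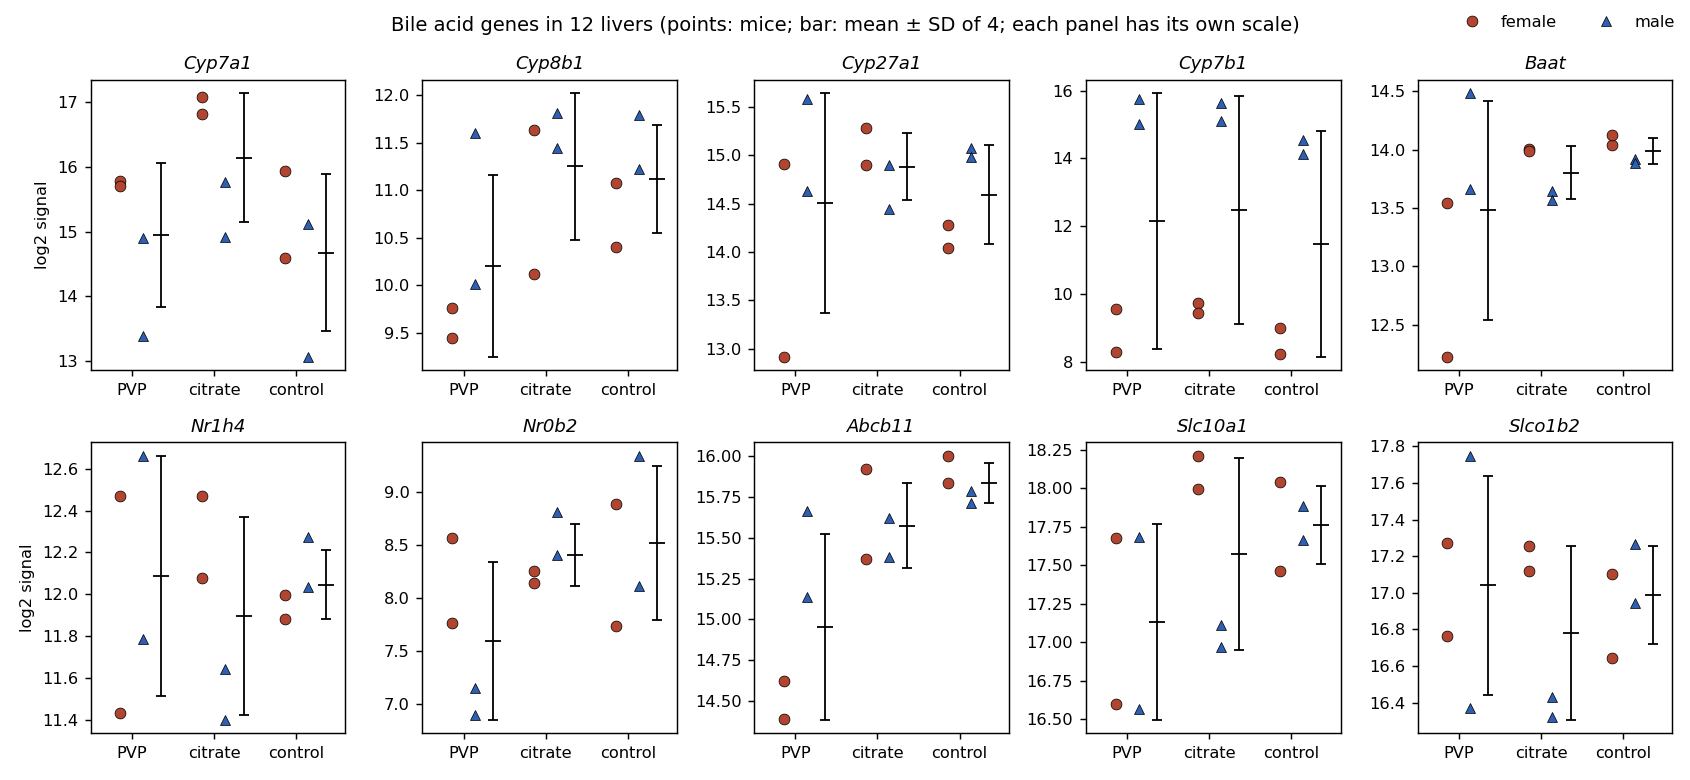
Log2 signal of the 10 bile acid genes in each of the 12 livers, by group (PVP, PVP-AgNP; citrate, cit-AgNP; control, water), with circles for females, triangles for males and bars for the mean ± SD of 4 mice; each panel has its own scale. Abcb11 is the gene whose 4 PVP-AgNP livers, 14.39 to 15.66, all lie below the 4 control livers, and the Cyp7b1 points split by sex in every group.

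Among the transporters, Abcb11, the bile salt export pump, had log2 signals of 14.62, 14.39, 15.66 and 15.14 in PVP-AgNP mice 1 to 4, 15.37, 15.92, 15.38 and 15.62 in cit-AgNP mice 1 to 4, and 15.78, 16.00, 15.71 and 15.83 in control mice 1 to 4. Every PVP-AgNP liver lay below every control liver, and the pair of PVP-AgNP females lay lowest of the 12. Abcb11 was the only one of the 10 genes whose PVP-AgNP and control groups did not overlap, which was true of 7.9% of all genes. Its mean was 14.95 ± 0.57 in PVP-AgNP livers and 15.83 ± 0.12 in control livers (SD, n = 4 each), a log2 fold change of -0.88 (SE 0.24, 95% interval -1.41 to -0.35, limma adjusted p = 0.128). That did not pass, and the value was -0.81 without PVP-AgNP mice 1 and 4. It was as low as -1.11 (limma adjusted p = 0.0524) without PVP-AgNP mouse 3, and in no alternative fit did it pass.

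The uptake transporter Slc10a1 (NTCP) had 16.60, 17.68, 17.68 and 16.56 in PVP-AgNP mice, 18.00, 18.21, 16.97 and 17.11 in cit-AgNP mice, and 17.88, 17.46, 17.66 and 18.04 in control mice. PVP-AgNP mice 1 and 4 stood lowest of all, and the other 2 lay within the control range. The log2 fold change of PVP-AgNP against control was -0.63 (SE 0.33, limma adjusted p = 0.298), and it was -0.08 without PVP-AgNP mice 1 and 4. Slco1b2 (OATP1B2), the sodium-independent uptake carrier, had 16.77, 17.27, 17.75 and 16.37 in PVP-AgNP mice, 17.26, 17.12, 16.32 and 16.43 in cit-AgNP mice, and 17.27, 16.64, 16.94 and 17.10 in control mice. Its groups overlapped widely, and the log2 fold change of PVP-AgNP against control was 0.05 (SE 0.30, 95% interval -0.62 to 0.73, limma adjusted p = 0.938), with values of 0.52 without PVP-AgNP mice 1 and 4, -0.14 after quantile normalization and -0.05 after centring each array on its median.

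Of the synthesis enzymes, Cyp8b1, the sterol hydroxylase that commits intermediates to cholic acid, had 9.76, 9.44, 11.60 and 10.02 in PVP-AgNP mice, 10.11, 11.64, 11.45 and 11.81 in cit-AgNP mice, and 11.22, 10.41, 11.79 and 11.08 in control mice. PVP-AgNP mice 1, 2 and 4 lay below all 4 controls and mouse 3 lay among them. The means were 10.20 ± 0.96 in PVP-AgNP livers and 11.12 ± 0.57 in control livers (SD, n = 4 each), with a log2 fold change of -0.92 (SE 0.39, 95% interval -1.79 to -0.05, limma adjusted p = 0.227). Without PVP-AgNP mice 1 and 4 it was -0.60.

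Cyp7a1, the rate-limiting enzyme of the classic route, had 15.79, 15.71, 14.91 and 13.38 in PVP-AgNP mice and 13.06, 14.60, 15.11 and 15.93 in control mice. Both groups spanned more than 2 log2 units, and they overlapped almost wholly. The log2 fold change was 0.27 (SE 0.48, 95% interval -0.79 to 1.33, limma adjusted p = 0.763), and it was -0.06 without control mouse 1 and 0.63 without PVP-AgNP mice 1 and 4. Cyp27a1, the mitochondrial sterol hydroxylase that opens the alternative route, had 12.91, 14.92, 15.58 and 14.63 in PVP-AgNP mice, 14.90, 15.29, 14.45 and 14.90 in cit-AgNP mice, and 15.07, 14.04, 14.99 and 14.28 in control mice. PVP-AgNP mouse 1 was the lowest of the 12 and PVP-AgNP mouse 3 the highest. Against control, PVP-AgNP had a log2 fold change of -0.09 (SE 0.45, limma adjusted p = 0.930), which was 0.41 without PVP-AgNP mouse 1 and 0.65 without PVP-AgNP mice 1 and 4.

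Baat, the conjugating enzyme, had 12.22, 13.54, 14.48 and 13.66 in PVP-AgNP mice, 14.005, 13.99, 13.65 and 13.57 in cit-AgNP mice, and 13.92, 14.04, 13.88 and 14.12 in control mice. The controls lay within a narrow band, and the PVP-AgNP livers lay on both sides of it. The log2 fold change was -0.51 (SE 0.37, limma adjusted p = 0.432) and was 0.02 without PVP-AgNP mice 1 and 4.

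The regulators differed from each other. Nr1h4, the gene of FXR, had 11.44, 12.47, 12.66 and 11.79 in PVP-AgNP mice, 12.47, 12.08, 11.40 and 11.65 in cit-AgNP mice, and 12.28, 11.88, 12.03 and 11.995 in control mice, and its log2 fold change against control was 0.04 with PVP-AgNP (SE 0.30, 95% interval -0.62 to 0.70, limma adjusted p = 0.951) and 0.52 without PVP-AgNP mice 1 and 4. The control range lay inside that of the PVP-AgNP livers. Nr0b2, the gene of SHP, had 7.77, 8.56, 7.16 and 6.90 in PVP-AgNP mice, 8.25, 8.14, 8.81 and 8.41 in cit-AgNP mice, and 9.34, 8.89, 8.11 and 7.74 in control mice. The 2 PVP-AgNP males were the lowest of the 12 livers, and the 2 PVP-AgNP females lay within the control range. The log2 fold change was -0.92 (SE 0.41, 95% interval -1.84 to -0.0047, limma adjusted p = 0.245), and it was -0.59 without control mouse 1 and -0.66 without PVP-AgNP mice 1 and 4.

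With cit-AgNP the higher values stood in Cyp7a1 and Cyp7b1, and again none of the 10 genes passed against control (0 of 10 called by limma, against 0.005% of all genes). At an unadjusted p under 0.05 there were 2 of the 10, both higher, against 6.57% of all genes. Groups that did not overlap were found for 0 of the 10, against 4.3% of all genes. The median log2 fold change of the 10 was -0.13. The controls are those of the PVP-AgNP comparison, so the 2 comparisons are not independent of each other.

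In cit-AgNP mice Cyp7a1 had 17.08, 16.81, 14.91 and 15.77, against 13.06, 14.60, 15.11 and 15.93 in control mice. The cit-AgNP females held the highest values of the 12 livers, and the cit-AgNP males lay inside the range of controls of both sexes. Against the control males, at 13.06 and 15.11, cit-AgNP mouse 4 at 15.77 lay above both and cit-AgNP mouse 3 at 14.91 lay between them. Means were 16.14 ± 1.00 in cit-AgNP livers and 14.67 ± 1.21 in control livers (SD, n = 4 each), with a log2 fold change of 1.47 (SE 0.48, 95% interval 0.41 to 2.53, limma adjusted p = 0.533). Within sexes, cit-AgNP minus control was 1.68 in females and 1.25 in males, and the value was lowest, 1.14, without control mouse 1.

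Cyp7b1, the oxysterol hydroxylase of the alternative route, had 9.74, 9.43, 15.11 and 15.65 in cit-AgNP mice 1 to 4, of which 1 and 2 were female, and 9.002 and 8.23 in the control females and 14.14 and 14.55 in the control males. In each sex both cit-AgNP livers lay above both controls, an order whose share among all genes was not counted. The log2 fold change adjusted for sex was 1.00 (SE 0.32, 95% interval 0.29 to 1.71, limma adjusted p = 0.514), and cit-AgNP minus control was 0.97 in females and 1.03 in males. With PVP-AgNP, Cyp7b1 had 8.30 and 9.57 in females and 15.76 and 15.00 in males, a log2 fold change of 0.68 (SE 0.32, limma adjusted p = 0.265) that came to 0.32 in females and 1.04 in males, and to 1.18 without PVP-AgNP mice 1 and 4. The remaining 8 genes had log2 fold changes of -0.26 (Abcb11) to 0.29 (Cyp27a1) with cit-AgNP, with limma adjusted p-values of 0.982 to 1.

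**Figure D2:**
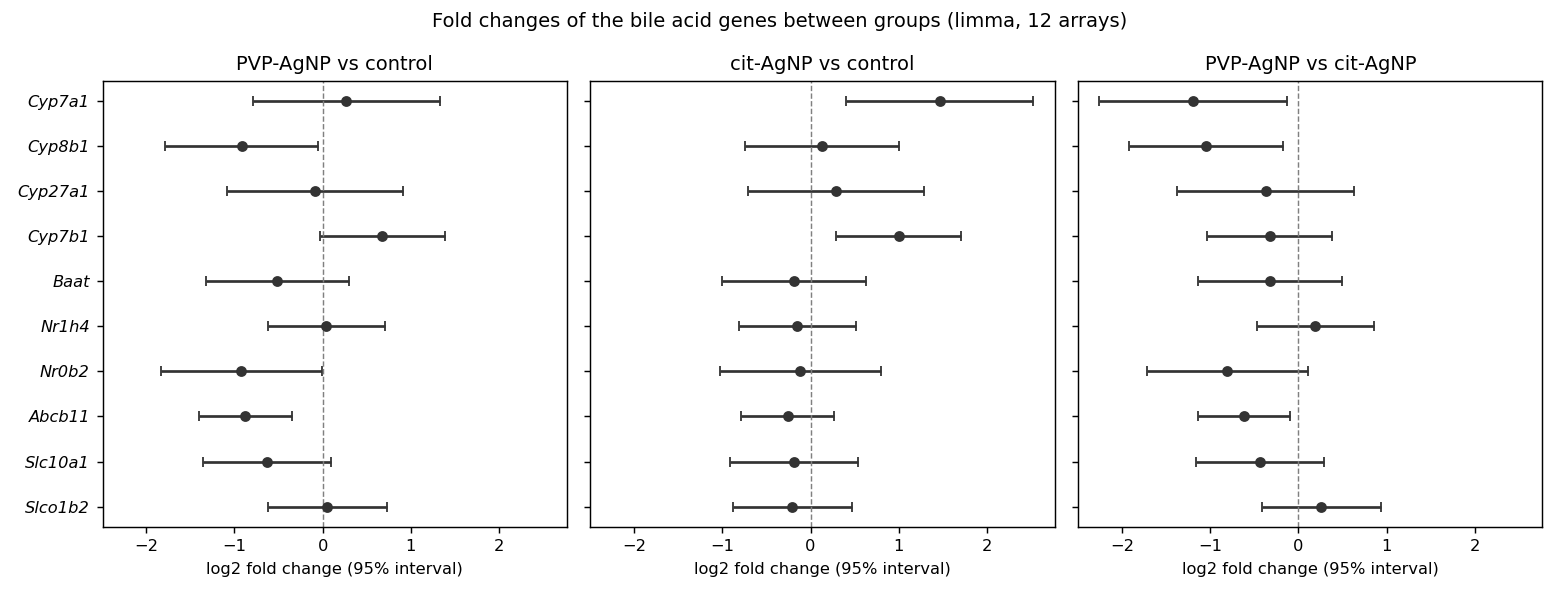
Log2 fold change of each of the 10 genes (points) with its 95% interval (bars) for PVP-AgNP against control, cit-AgNP against control and PVP-AgNP against cit-AgNP, from the fit to all 12 arrays with group and sex. Abcb11 at -0.88 has the interval farthest from 0 with PVP-AgNP, Cyp7a1 and Cyp7b1 at 1.47 and 1.00 those above 0 with cit-AgNP, and no gene passed after adjustment.

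Set directly against each other, PVP-AgNP and cit-AgNP livers gave the smallest p-values for Cyp8b1, Abcb11 and Cyp7a1, and here too none of the 10 passed (0 of 10, against 0% of all genes, since no gene was called). The particles share their size and silver dose and differ in the named coating, a polymer in place of a small carboxylate. At an unadjusted p under 0.05 there were 3 of the 10, all lower with PVP-AgNP, against 14% of all genes. Groups without overlap were found for 0 of the 10 and for 7.2% of all genes. Cyp7a1 averaged 14.95 ± 1.12 in PVP-AgNP livers and 16.14 ± 1.00 in cit-AgNP livers (SD, n = 4 each), a log2 fold change of -1.20 (SE 0.48, 95% interval -2.26 to -0.14, limma adjusted p = 0.337), and the difference was -1.20 in females and -1.20 in males. For Cyp8b1 the log2 fold change was -1.05 (SE 0.39, limma adjusted p = 0.325), and for Abcb11 it was -0.62 (SE 0.24, limma adjusted p = 0.329). Nr0b2 followed at -0.81 (SE 0.41, 95% interval -1.72 to 0.11, limma adjusted p = 0.403). For the other 6 genes the values ran from -0.44 (Slc10a1) to 0.26 (Slco1b2), with intervals that all held 0, the widest being that of Cyp27a1, -1.37 to 0.63. Without PVP-AgNP mice 1 and 4 the sign turned in 4 of these 6, to 0.11 for Slc10a1, 0.21 for Baat, 0.37 for Cyp27a1 and 0.18 for Cyp7b1.

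Sex separated 1 of the 10 genes. Cyp7b1 fell by 5.99 on the log2 scale in females relative to males (SE 0.26, limma adjusted p = 6.2e-07). Its lowest, median and highest signals were 8.23, 9.22 and 9.74 in the 6 females and 14.14, 15.06 and 15.76 in the 6 males. No female came near any male, and the difference stood in every group, at -6.45 with PVP-AgNP, -5.79 with cit-AgNP and -5.73 in controls. It was 1 of 10 called, where 2.18% of all genes were called between the sexes. Groups of sex that did not overlap were likewise found for Cyp7b1 alone of the 10 and for 2.28% of all genes.

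Cyp7a1 and Cyp8b1 had opposite signs by sex and did not pass. Cyp7a1 ran from 14.60 to 17.08 with a median of 15.86 in females and from 13.06 to 15.77 with a median of 14.91 in males, a log2 fold change of 1.46 (SE 0.39, limma adjusted p = 0.0945). It passed without control mouse 3, with 1.76 and a limma adjusted p of 0.0376. Cyp8b1 ran from 9.44 to 11.64 with a median of 10.26 in females and from 10.02 to 11.81 with a median of 11.52 in males, a log2 fold change of -0.91 (SE 0.32, limma adjusted p = 0.209). These 3 were the genes at an unadjusted p under 0.05, where 15.3% of all genes were. The other 7 genes had female over male values of -0.55 (Cyp27a1) to 0.35 (Slc10a1).

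The response to a coating could be compared between the sexes from 2 mice of each kind. For PVP-AgNP the effect in females minus that in males passed for 0 of the 10 genes and for 0% of all genes, and 2 of the 10 were at an unadjusted p under 0.05 against 3.62% of all genes. These were Abcb11, with PVP-AgNP minus control of -1.41 in females and -0.35 in males (difference -1.06, SE 0.32, limma adjusted p = 1), and Baat, with -1.20 in females and 0.17 in males (difference -1.37, SE 0.56, limma adjusted p = 1). The value of Baat rested on PVP-AgNP mouse 1, at 12.22, and the difference was -0.71 without it. Nr0b2 had the other order, -0.14 in females and -1.70 in males (difference 1.55, SE 0.68, limma adjusted p = 1), with a difference of 0.94 without control mouse 1. For cit-AgNP the differences passed for 0 of 10 genes and 0% of all genes, and 0 of the 10 were at an unadjusted p under 0.05 against 2.45% of all genes. The largest were those of Cyp27a1, at 1.29 (SE 0.81), Slc10a1, at 1.09 (SE 0.59), and Slco1b2, at 1.05 (SE 0.56), each with a limma adjusted p of 1. In Slc10a1 cit-AgNP minus control was 0.35 in females and -0.73 in males, and in Slco1b2 it was 0.32 in females and -0.73 in males.

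**Figure D3:**
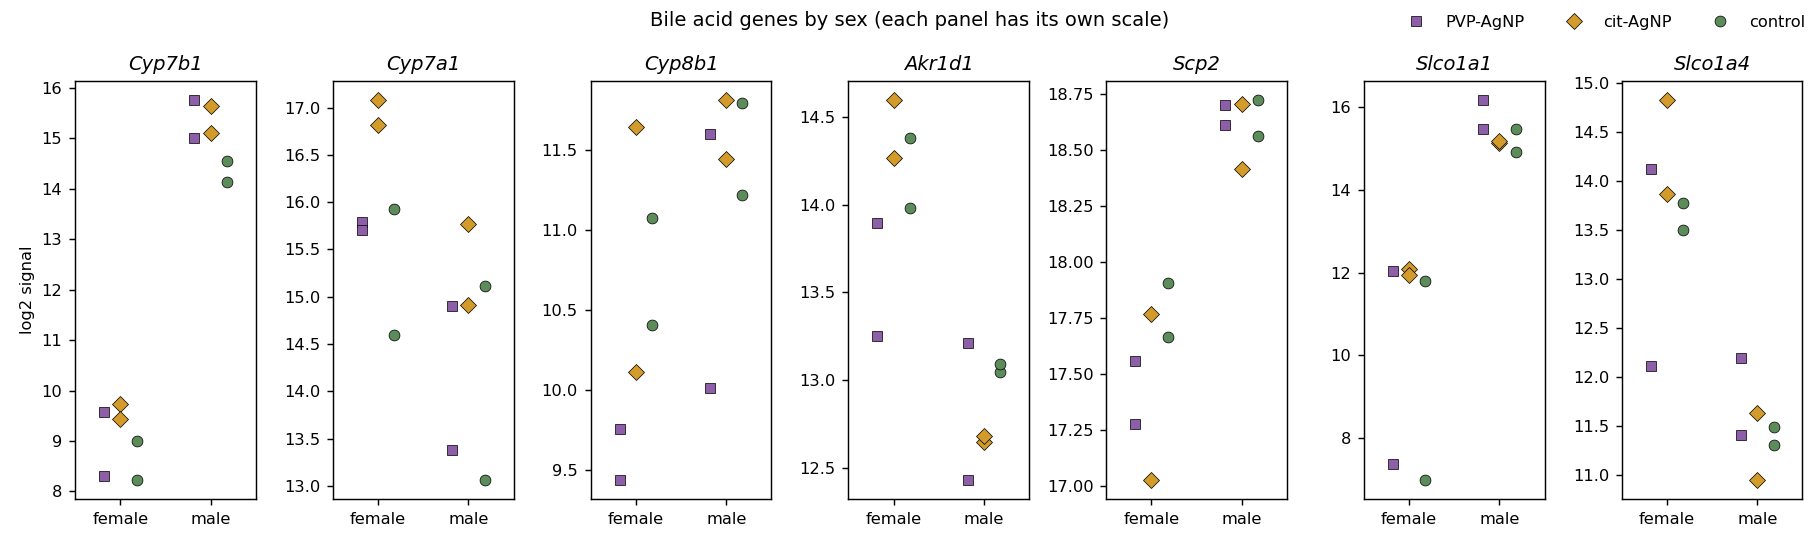
Log2 signal in females and males of Cyp7b1, Cyp7a1 and Cyp8b1 and of the 4 other bile acid genes that differed by sex, with squares for PVP-AgNP, diamonds for cit-AgNP and circles for control livers; each panel has its own scale. Cyp7b1 lies at 8.23 to 9.74 in females and 14.14 to 15.76 in males in every group, and Slco1a1 is low in all females with 2 of them near 7.

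The mice within a group differed in these genes. Relative to the average of all livers of its sex, each mouse was summarised by the median over the 10 genes. It was -0.69, 0.13, 0.50 and -0.44 in PVP-AgNP mice 1 to 4, 0.34, 0.47, -0.19 and 0.02 in cit-AgNP mice 1 to 4, and 0.19, -0.11, 0.08 and 0.01 in control mice 1 to 4. PVP-AgNP mice 1 and 4 were the lowest of their sex for 4 genes each, and PVP-AgNP mouse 3 was the highest of its sex for 5. PVP-AgNP mouse 2, whose median was not low, held the lowest Abcb11 and the lowest Cyp8b1 of the 12 livers. PVP-AgNP mice 1 and 4 had the lowest exon over intron areas, 0.778 and 0.794. Fold changes are given without them and, in the part on processing, with that area in the fit. The part of array quality in these values was not otherwise tested.

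**Figure D4:**
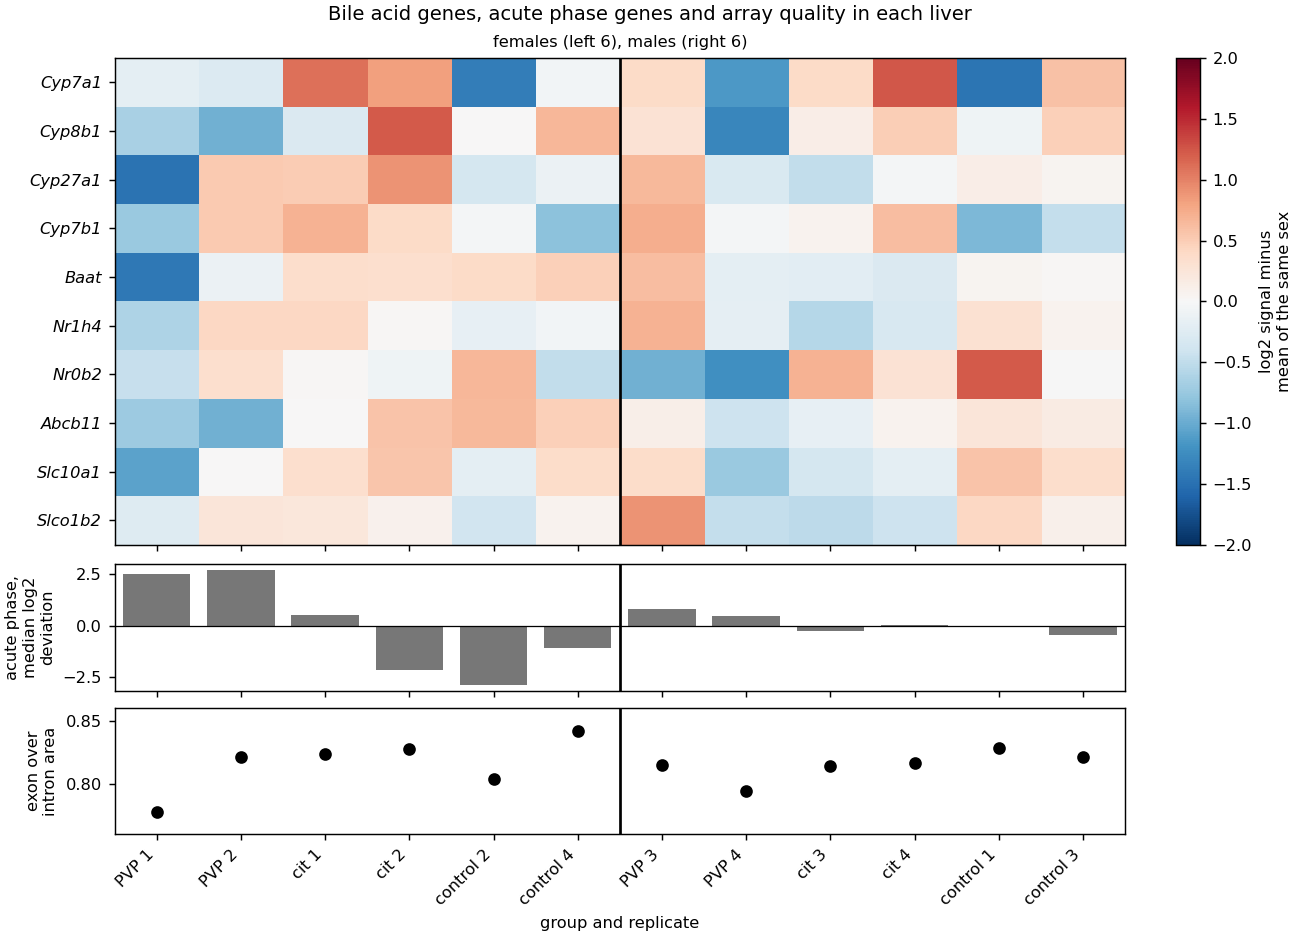
Log2 signal of each of the 10 genes minus the mean of the same sex in each liver (colours, blue below and red above 0; females left of the line, males right), over bars for the median deviation of the acute phase genes not at the ceiling in every liver and points for the area under the exon over intron curve. PVP-AgNP mice 1 and 4 have the lowest areas and mostly blue columns, with medians of -0.69 and -0.44, and the acute phase bars are highest in PVP-AgNP mice 1 and 2.

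Acute phase genes and markers of immune cells had their highest values in PVP-AgNP livers. Of 8 acute phase genes, 0 passed against control and 7 were at an unadjusted p under 0.05, all higher, against 20.3% of all genes. Over the 8 the median log2 fold change was 1.94 and the lowest was 0. The PVP-AgNP effect was larger in females than in males at that p for 5 of the 8, against 3.62% of all genes. The median difference was 2.54, and 0 passed. Saa1 averaged 16.31 ± 3.16 in PVP-AgNP livers and 10.49 ± 1.06 in control livers (log2, SD, n = 4 each; log2 fold change 5.83, limma adjusted p = 0.0877). The median deviation of the acute phase genes not at the ceiling in every liver was 2.50, 2.70, 0.79 and 0.48 in PVP-AgNP mice 1 to 4. It was 0.51, -2.15, -0.24 and 0.03 in cit-AgNP mice 1 to 4, and -2.88 to -0.03 in controls. The 5 Kupffer cell markers, all 5 above the filter, had positive log2 fold changes with PVP-AgNP, 1 of them (1 of 5, against 20.3% of all genes) at an unadjusted p under 0.05, and summed to 11.85 to 14.44 in PVP-AgNP livers, 11.42 to 13.21 in cit-AgNP livers and 11.44 to 12.49 in control livers. PVP-AgNP mouse 2 was the highest of the 12 for each of the 5, and without it their median log2 fold change was 0.23, against 0.56 with it, and Vsig4 came to -0.14. Of 4 neutrophil markers 3 were above the filter, all 3 with positive values, 2 at an unadjusted p under 0.05, and the sums were 9.08 to 12.60, 9.15 to 9.93 and 6.75 to 9.80 in the same order of groups. Without PVP-AgNP mouse 2 none of the 3 neutrophil markers was at that threshold. With cit-AgNP against control these 5 Kupffer cell and 3 neutrophil markers were also all above 0, with 0 at that threshold. Their median log2 fold changes were 0.47 and 1.14 with cit-AgNP, and 0.56 and 1.96 with PVP-AgNP. Set directly against cit-AgNP, PVP-AgNP gave medians of 0.08 and 0.71, with 0 of these markers at that threshold, against 14% of all genes. Positive values of these markers were thus not particular to PVP-AgNP, but a rise with cit-AgNP was not established. Control mouse 1 had a neutrophil median deviation of -2.53, and control mice 2 to 4 had -0.54, -0.19 and -0.11. Values of these markers without that mouse are not given. The part of these cells or of the acute phase in the bile acid genes was not tested. Of 8 clock output genes, 0 passed with either coating. With PVP-AgNP 1 rose and 2 fell at the unadjusted threshold of 0.05, against 20.3% of all genes. With cit-AgNP 1 fell, against 6.57%. The median log2 fold change was -0.04 with PVP-AgNP and -0.14 with cit-AgNP, and changes of opposite sign can cancel in it. Nr1d1 had the lowest value with cit-AgNP, -1.23. Every cit-AgNP liver lay below every control liver for Nr1d1, where 4.3% of all genes had groups without overlap. The part of the clock in Cyp7a1 was not tested.

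Around the 10 genes, 37 of 42 others of the pathway were tested, from a list chosen with earlier results of these data known. Between treatment groups 0 of the 37 passed. At an unadjusted p under 0.05, the counts below stand against 20.3% of all genes with PVP-AgNP and 6.57% with cit-AgNP. Among 14 other synthesis genes the median log2 fold change was -0.29 with PVP-AgNP, with 2 above 0 and 12 below, and -0.06 with cit-AgNP; at an unadjusted p under 0.05 there were 2, both lower, with PVP-AgNP and 0 with cit-AgNP. Among 12 other transport genes it was -0.16 with PVP-AgNP, with 2 above 0 and 10 below, and -0.11 with cit-AgNP. The same threshold gave 2 of these lower with PVP-AgNP and 1 lower with cit-AgNP. That list holds Ephx1, the gene of an epoxide hydrolase, which was 1 of the 2 and had the lowest value, -1.18. Of all genes, 49.3% were above 0 with PVP-AgNP. The counts of both lists include the PVP-AgNP livers of lowest exon over intron area, and counts without them are not given. Both of those livers lay below both other PVP-AgNP livers in Hsd3b7, Akr1c6, Amacr, Hsd17b4, Slc27a2, Cyp46a1 and Acot8. In the remaining synthesis genes they did not. Their part in the lower values was not tested. For 11 other regulators the median log2 fold change was -0.09 with PVP-AgNP and -0.16 with cit-AgNP, with 1 higher at that threshold with PVP-AgNP and 1 higher and 3 lower with cit-AgNP.

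Prox1, a homeobox factor that represses Cyp7a1 by acting on HNF4 alpha and LRH-1, had 11.86, 12.11, 12.02 and 11.45 in PVP-AgNP mice, 11.13, 10.50, 10.24 and 10.60 in cit-AgNP mice, and 10.95, 11.50, 10.93 and 11.61 in control mice. Every PVP-AgNP liver lay above every cit-AgNP liver, where 7.2% of all genes had groups without overlap, and the controls overlapped both. Its log2 fold change was 1.25 for PVP-AgNP against cit-AgNP (SE 0.18, limma adjusted p = 0.169), 0.62 for PVP-AgNP against control (SE 0.18, limma adjusted p = 0.145) and -0.63 for cit-AgNP against control (SE 0.18, limma adjusted p = 0.448), none of which passed.

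Among the other bile acid genes, Prox1 had the smallest p-value with cit-AgNP against control and between the coatings. With PVP-AgNP against control the p-value of Slco2b1 was smaller than that of Prox1. Apart from Prox1, the genes of smallest p-value were as follows. With PVP-AgNP against control these were Slco2b1, an organic anion carrier, at -0.49 (SE 0.13, limma adjusted p = 0.127), and Ephx1, microsomal epoxide hydrolase, at -1.18 (SE 0.37, limma adjusted p = 0.158), which was -0.55 without PVP-AgNP mice 1 and 4. With cit-AgNP they were Nr5a2, the gene of LRH-1, at -0.27 (SE 0.10, limma adjusted p = 0.590), and Mafg, a small repressor induced by FXR, at -0.23 (SE 0.09, limma adjusted p = 0.632). Between the coatings they were Cyp2c70, which makes the muricholic acids of mice, at -0.69 (SE 0.19, limma adjusted p = 0.247), and Acox2, the peroxisomal oxidase of side chain shortening, at -0.54 (SE 0.17, limma adjusted p = 0.284). Both were lower in every PVP-AgNP liver than in every cit-AgNP liver, again against 7.2% of all genes without overlap. Between the coatings Mafg and Ppargc1a did not overlap either, Mafg being higher with PVP-AgNP and Ppargc1a lower. Against control, every cit-AgNP liver was higher in Cyp2c70 and lower in Hsd3b7, where 4.3% of all genes had groups without overlap. For Cyp2c70, cit-AgNP minus control was 0.33 in females and 0.47 in males, and PVP-AgNP minus control was -0.41 and -0.16.

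**Figure D5:**
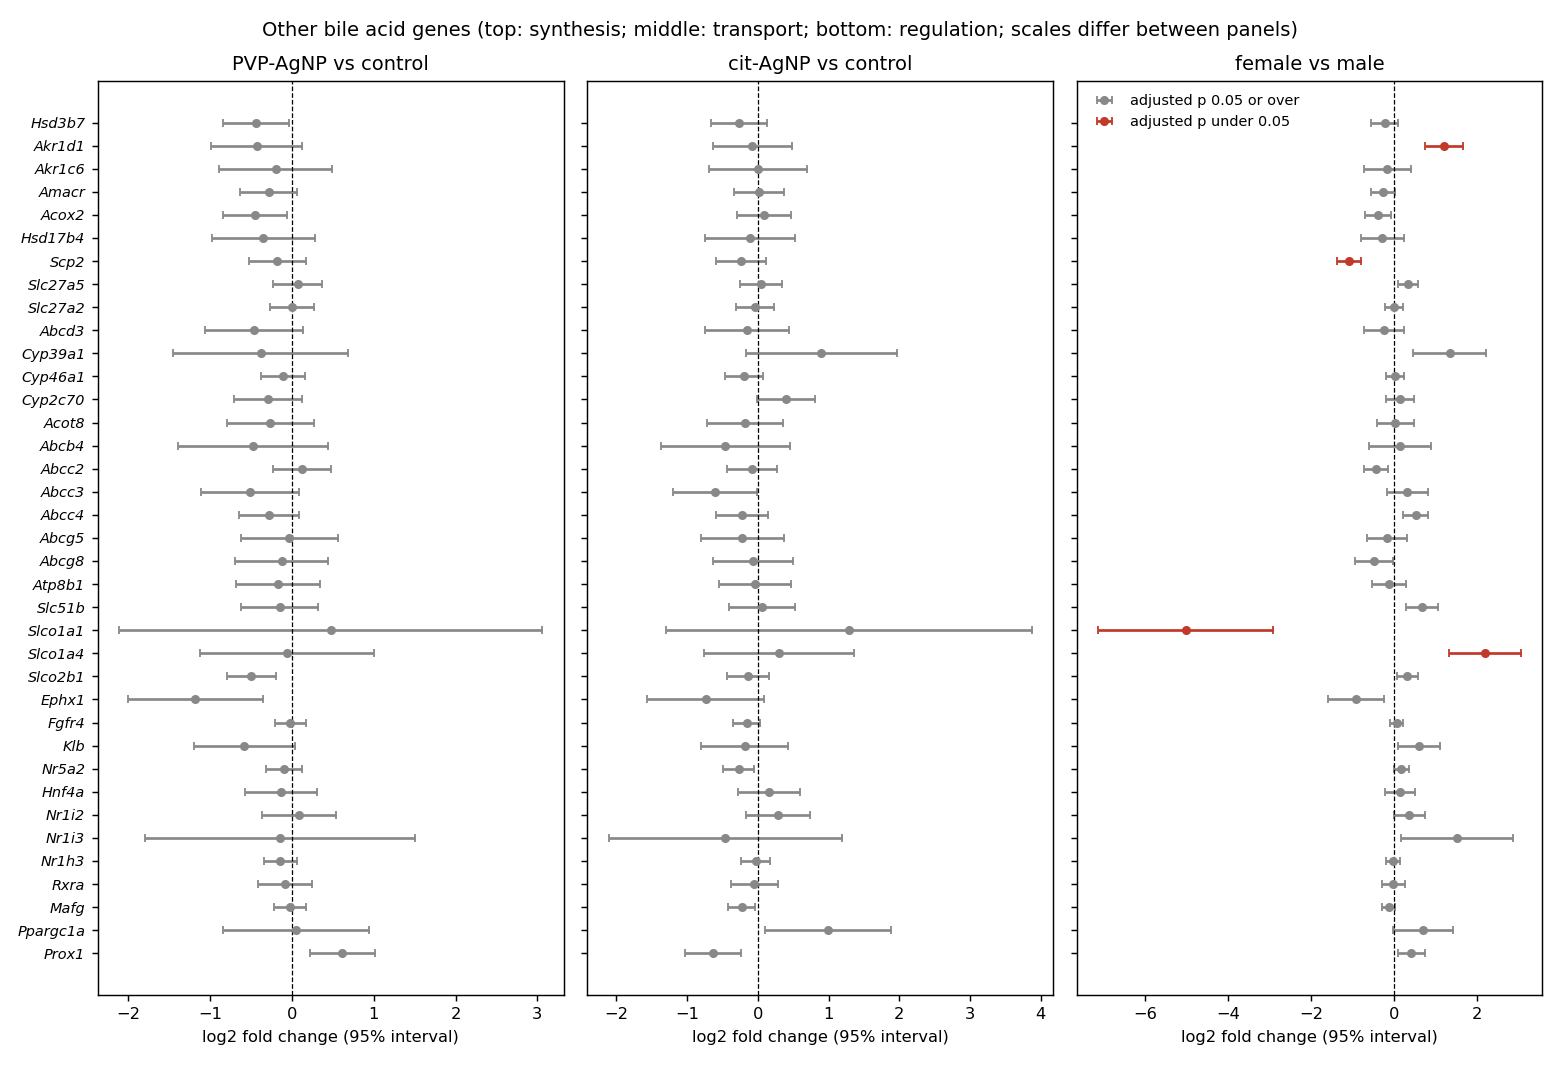
Log2 fold changes (points) with 95% intervals (bars) of the 37 other bile acid genes tested, with synthesis at the top, transport in the middle and regulation at the bottom, for PVP-AgNP against control, cit-AgNP against control and female against male; scales differ between panels. None passed against control, and Akr1d1, Scp2, Slco1a1 and Slco1a4, in red, passed between the sexes. Most synthesis genes lie below 0 with PVP-AgNP in this fit, which includes the PVP-AgNP livers of lowest exon over intron area.

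Of these 37 genes, 4 differed between females and males, where 2.18% of all genes were called. Akr1d1, the reductase that acts on the A ring of bile acid precursors, rose in females by 1.21 (SE 0.20, limma adjusted p = 0.0137), at 14.06 ± 0.47 in females and 12.85 ± 0.31 in males (SD, n = 6 each). Slco1a4, a basolateral anion carrier, rose by 2.21 (SE 0.39, limma adjusted p = 0.0173), at 13.70 ± 0.90 in females and 11.49 ± 0.41 in males. Scp2, the peroxisomal thiolase and sterol carrier, fell by 1.09 in females (SE 0.13, limma adjusted p = 0.00155), at 17.53 ± 0.33 in females and 18.62 ± 0.12 in males. Slco1a1, another basolateral carrier, fell by 5.02 in females (SE 0.95, limma adjusted p = 0.0243), and its signal was 7.37 and 12.04 in PVP-AgNP females, 12.07 and 11.93 in cit-AgNP females, 11.78 and 6.99 in control females and 14.92 to 16.17 in males. PVP-AgNP mouse 1 and control mouse 4 thus stood far below the other 4 females. The call of Slco1a1 was lost without any of control mouse 1, control mouse 3, PVP-AgNP mouse 3 or PVP-AgNP mouse 4, with limma adjusted p-values of 0.0585 to 0.0642, and that of Slco1a4 without cit-AgNP mouse 3 (0.0508). Without PVP-AgNP mice 1 and 4 together, the calls of Akr1d1 and Slco1a1 were lost (limma adjusted p = 0.0640 and 0.0513).

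The genes whose signals over the 12 livers were most like those of Cyp7a1 were Zbtb21 (Pearson's r 0.902, Spearman's rho 0.587), Gpcpd1 (0.859, 0.867) and Surf2 (0.851, 0.811). After removal of the mean of each sex the Pearson values were 0.853, 0.808 and 0.741. For Cyp8b1 they were Ndufb5 (0.939, 0.881), Ubxn6 (0.911, 0.944) and Ptgr2 (0.902, 0.853), with 0.932, 0.872 and 0.883 after removal of the sex means. These coefficients are the highest of many genes, and the livers share sex, treatment and array quality, so they are given as a description.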

How the data were processed

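Liver RNA from 12 mice was measured on Affymetrix arrays, 1 per mouse, and the labels gave treatment and sex. Values are the log2 signals per probe set that the authors deposited; the submitters' processing notes list RMA and Transcriptome Analysis Console 4.0.1.36 but not what each did, and the genome build and annotation are not given in the sources used here. The table had a ceiling at 19.93, which none of the 10 genes reached, and array medians of 4.13 to 4.40. No further normalization was applied.

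Probe sets naming exactly 1 symbol in the platform's table were used, with 1135 symbols brought up to date from RefSeq GRCm38.p6, and the probe set of highest mean stood for a gene. The test took the 19985 of 30063 genes with a mean over 3.93, the 40th percentile of the table. Limma 3.58.1 in R 4.3.3 (lmFit, eBayes with trend, two-sided) was fitted to all 12 arrays with group and sex, and with 6 means of group by sex for differences in response. Benjamini-Hochberg adjustment ran over all 19985 genes, and a gene passed, or was called, at an adjusted p under 0.05. The fits were tested on simulated data. Nothing in the labels says that mice came from separate litters or cages, so p-values measure the spread between these livers.

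The 10 genes, the other lists, the markers, the acute phase and clock lists and the motifs were chosen with earlier results of these data known. Of the other bile acid genes, those that passed and the 3 of smallest p per comparison are named, and for likeness the 3 genes of highest Pearson coefficient, with predicted genes left out. Among the others, Ch25h, Slc51a, Fgf15 and Gpbar1 did not pass the filter. The sums of markers are log2 of summed linear signals.

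Replicate numbers did not pair the mice: deviations of same-numbered livers correlated at -0.44 to 0.234 over genes, and 1 array correlated best with its own number. Alternatives covered the filter, normalization, covariates, the spread model, the choice of probe set and leaving out mice. No 2 arrays were copies, the highest Pearson coefficient between 2 being 0.996.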

Additional observations from a re-analysis of the deposited data

How the results depend on the processing

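None of the 10 genes was called between treatment groups, or in the differences between the sexes in response, in any alternative, and Cyp7b1 was called between females and males in every one, with log2 fold changes of -6.12 to -5.77 and limma adjusted p-values of 1.88e-07 to 0.00114. Abcb11 with PVP-AgNP against control kept its direction at -1.11 to -0.70, with limma adjusted p-values of 0.0524 to 0.478, and Cyp7a1 with cit-AgNP against control at 1.14 to 1.91, with 0.368 to 0.956. Without control replicate 3, Cyp7a1 was a second gene called between the sexes, so leaving out each mouse gave 1 to 2 called. Counts over all genes moved more. The 8 genes called with PVP-AgNP against control became 4 without a filter, 0 after quantile normalization, 3 after centring on array medians, 2 without sex, 0 with the 2 groups alone, with 6 means or with the replicate block, 52 without a trend, 5 with the mean of probe sets, 0 without PVP-AgNP mice 1 and 4, whose exon over intron areas were lowest, and 2 with that area as a term in the fit. The 1 gene called with cit-AgNP against control became 2 after quantile normalization or without a trend, 5 with the area in the fit, and 0 after centring, without sex, with the 2 groups alone, with 6 means, with the replicate block or without PVP-AgNP mice 1 and 4. Between the coatings 1 gene was called in place of 0 after quantile normalization and with 6 means. The 435 genes that differed by sex became 56 with the replicate block, where numbers 1 and 2 were female and 3 and 4 male in both AgNP groups, and 930 with the area in the fit. Leaving out each mouse gave 1 to 61 genes with PVP-AgNP against control (1 without any of 7 mice, namely control 3 or 4, cit-AgNP 1, 2 or 3 and PVP-AgNP 1 or 4, and highest without PVP-AgNP replicate 3), 0 to 6 with cit-AgNP against control (highest without PVP-AgNP replicate 1), 245 to 605 by sex, 0 to 3 for the PVP-AgNP effect in females minus males and 0 to 2 for the cit-AgNP effect in females minus males. Among the other bile acid genes, the sex calls of Scp2, Akr1d1, Slco1a4 and Slco1a1 were lost with the replicate block, with limma adjusted p-values of 0.197, 0.212, 0.333 and 0.0610, and those of Akr1d1 and Slco1a1 without PVP-AgNP mice 1 and 4, with 0.0640 and 0.0513. After quantile normalization the sign turned in Slco1b2 (-0.14) for PVP-AgNP against control, Cyp8b1 (-0.15) and Nr0b2 (-0.10) for the cit-AgNP effect in females minus males and Nr1h4 (0.038) for the PVP-AgNP effect in females minus males. After centring on array medians the sign turned in Nr1h4 (-0.057) and Slco1b2 (-0.046) for PVP-AgNP against control and Cyp7b1 (0.013) and Abcb11 (0.048) for the cit-AgNP effect in females minus males. With the replicate block the sign turned in Nr1h4 (-0.022) and Nr0b2 (-0.62) for female over male. With the area in the fit the sign turned in Cyp27a1 (0.70) and Baat (0.0065) for PVP-AgNP against control, Cyp27a1 (0.28), Baat (0.11) and Slc10a1 (0.068) for PVP-AgNP against cit-AgNP and Cyp8b1 (-0.14), Baat (-0.042) and Nr0b2 (-0.0061) for the cit-AgNP effect in females minus males. Without PVP-AgNP mice 1 and 4 the sign turned in Cyp27a1 (0.65) and Baat (0.022) for PVP-AgNP against control, Cyp27a1 (0.37), Cyp7b1 (0.18), Baat (0.21) and Slc10a1 (0.11) for PVP-AgNP against cit-AgNP, Baat (0.040) and Nr0b2 (-0.050) for female over male and Cyp7a1 (-0.37), Cyp27a1 (0.20), Nr1h4 (0.026) and Slco1b2 (-0.24) for the PVP-AgNP effect in females minus males. Leaving out each mouse in turn turned the sign, for PVP-AgNP against control, Cyp7a1 from -0.060 to 0.71, Nr1h4 from -0.19 to 0.30, Slco1b2 from -0.25 to 0.27 and Cyp27a1 from -0.38 to 0.41. Likewise for cit-AgNP against control, Cyp8b1 from -0.19 to 0.39, Nr0b2 from -0.43 to 0.21 and Nr1h4 from -0.35 to 0.021. Likewise for PVP-AgNP against cit-AgNP, Cyp27a1 from -0.67 to 0.12, Baat from -0.66 to 0.11, Nr1h4 from -0.041 to 0.45 and Slco1b2 from -0.041 to 0.48. Likewise for female over male, Nr1h4 from -0.044 to 0.26, Baat from -0.29 to 0.081 and Nr0b2 from -0.13 to 0.32. Likewise for the cit-AgNP effect in females minus males, Cyp7b1 from -0.45 to 0.33, Nr0b2 from -0.61 to 0.62, Cyp7a1 from -0.59 to 1.46, Cyp8b1 from -0.75 to 0.78 and Abcb11 from -0.30 to 0.25. Likewise for the PVP-AgNP effect in females minus males, Slc10a1 from -0.52 to 0.60, Cyp7a1 from -0.60 to 1.45, Slco1b2 from -0.50 to 0.88, Nr1h4 from -0.57 to 0.46, Cyp27a1 from -1.32 to 0.68 and Cyp8b1 from -1.24 to 0.35. The causes were not tested. With 4 arrays a group the intervals of the fold changes against control stayed wide, that of Cyp7a1 with PVP-AgNP running from -0.79 to 1.33.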
